A study of Sorghum bicolor with 4 samples.

Results

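The cellulose synthase genes of the secondary cell wall were followed through stem development in sweet sorghum (Sorghum bicolor). The set held 3 genes, chosen by ID as the orthologs of rice CESA4, CESA7 and CESA9, out of 34129 gene IDs in the deposited table. All 3 were found: Sobic.003G296400 (ortholog of rice CESA4), Sobic.001G224300 (CESA7) and Sobic.002G205500 (CESA9). The orthology was taken as given, because the files pair no ID with a gene name or a description, and it was not checked here. RNA came from the middle internode of the stem of the variety SSV84, raised in an open field. All libraries shared this variety, tissue and setting. They differed in the developmental stage of the plant: 2 libraries were labelled Booting, 1 Milky stage and 1 Physiological Maturity.

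Cellulose is made at the plasma membrane by rosette-shaped complexes of cellulose synthase (CESA) subunits, which join glucose from UDP-glucose into chains that bundle into microfibrils. Plants use one set of CESA proteins while cells grow and a second set when xylem vessels and sclerenchyma fibres stop expanding and lay down the thick secondary wall. In rice, loss of CESA4, CESA7 or CESA9 makes the culm brittle, and none of these subunits replaces another. Secondary-wall CESA genes are known in Arabidopsis and grasses as targets of a cascade of NAC and R2R3 MYB transcription factors, the MYB family named in the title of the series. In a grass internode, the wall they build makes up much of the stem's dry biomass.

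Each gene had 1 row with a single ID, so none of the values was merged with another gene, and 0 other rows overlapped any of these loci. Sobic.003G296400 lay on chromosome 3 from 62851273 to 62857742, Sobic.001G224300 on chromosome 1 from 21485581 to 21489706, and Sobic.002G205500 on chromosome 2 from 59706938 to 59711587. These are whole gene loci in the coordinates of the deposited table, whose genome build the sources used here do not name. Values are FPKM, in which fragment counts are divided by the length of the transcript and by the mapped total, so levels can be set side by side between genes. The table gives the authors' value for each stage and no value for a single library. The values therefore carry no SD, no n and no test, and the spread between plants is unknown. Of 34458 rows, 18505 had 1 FPKM or more in some stage and are called expressed here. Between 16871 and 17461 rows were at that level in a given stage. The tissue label could not be set against marker genes for want of gene names.

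All 3 genes had moderate FPKM at Booting, higher FPKM at the Milky stage and almost none at Physiological Maturity. Sobic.003G296400, the CESA4 ortholog, had 11.4 FPKM at Booting, 16.8 FPKM at the Milky stage and 0.196 FPKM at Physiological Maturity. Sobic.001G224300, the CESA7 ortholog, had 4.005, 7.15 and 0.0414 FPKM at the same stages in that order. Sobic.002G205500, the CESA9 ortholog, had 5.57, 9.76 and 0.0196 FPKM. In each gene the Milky stage was highest and Physiological Maturity lowest, and the value at maturity was far below both others. Summed over the 3 genes, the level was 21.0 FPKM at Booting, 33.7 FPKM at the Milky stage and 0.257 FPKM at Physiological Maturity. Because the tissue was taken whole, fewer wall-forming cells and less of this RNA in each cell cannot be told apart. With 1 library labelled Milky stage and 1 labelled Physiological Maturity, a difference between those samples cannot be told apart from stage either.

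**Figure D1:**
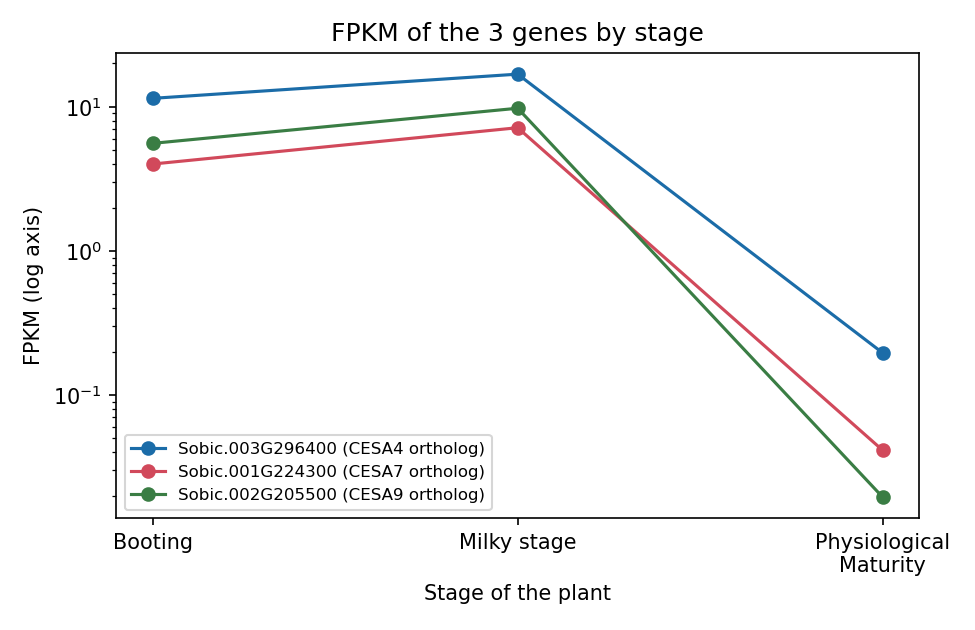
FPKM on a log axis for the 3 genes at each stage, 1 point for each gene and stage (the authors' value, no error available). The lines run close to parallel up to the Milky stage, where the genes stand between 7.15 and 16.8 FPKM, and drop to between 0.0196 and 0.196 FPKM at Physiological Maturity.

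The position of the genes among all rows moved in the same way. Ranked from the highest FPKM down, Sobic.003G296400 stood at place 8975 of 34458 at Booting, place 7192 at the Milky stage and place 20793 at Physiological Maturity. Sobic.001G224300 stood at places 13039, 11040 and 23305 in the same order of stages, and Sobic.002G205500 at 11873, 9750 and 24354. Thus none of the genes was among the most abundant transcripts of the internode at any stage. At Physiological Maturity 25708 rows were above 0, so each of the genes ranked among the weaker rows still detected.

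The first step, Milky stage against Booting, was modest and of similar size in the 3 genes. Sobic.001G224300 had 7.15 FPKM at the Milky stage and 4.005 FPKM at Booting, a ratio of 1.79. Sobic.002G205500 had a ratio of 1.75, and Sobic.003G296400 a ratio of 1.47. On the log2(FPKM + 1) scale these were differences of 0.70, 0.71 and 0.52. A row was called risen or fallen when its log2(FPKM + 1) differed by at least 1, a rule of size and not a test. By it, 0 of the 3 genes rose, while 894 of the 18505 expressed rows did (4.83%). A share of 9.55% of expressed rows had a larger difference than Sobic.002G205500, 9.72% than Sobic.001G224300 and 15.5% than Sobic.003G296400. The median difference of the 3 genes was 0.70, against −0.01 over all expressed rows.

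The second step, Physiological Maturity against the Milky stage, carried the large change, and all 3 genes fell. Sobic.002G205500 fell most in proportion, to 0.0196 FPKM at Physiological Maturity against 9.76 FPKM at the Milky stage, or 0.201% of the earlier level. Sobic.001G224300 retained 0.579% and Sobic.003G296400 retained 1.17% of the Milky stage level. Put as ratios, the Milky stage level was 498, 173 and 85.8 times that at maturity for these genes in that order. The log2(FPKM + 1) differences were −3.40, −2.97 and −3.90, so on this scale Sobic.003G296400 fell most and the order of the genes depends on the scale. This scale understates the change because the values at maturity lie far under the added 1. By the rule of size 3 of 3 genes fell, against 672 of 18505 expressed rows (3.63%). The median difference was −3.40 for the 3 genes and 0.06 over all expressed rows. From the most negative difference up, Sobic.003G296400 held place 20, Sobic.002G205500 place 32 and Sobic.001G224300 place 49.

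A fall of this depth was rare among rows with at least 5 FPKM at the Milky stage. That minimum is set on the stage where the 3 genes were highest, which favours a later fall in the rows that pass it. Sobic.001G224300, at 4.005 FPKM at Booting, reached it only there. Of 11150 single-ID rows with at least 5 FPKM at the Milky stage and a value above 0 at Physiological Maturity, 16 stood at 1/50 or less of their Milky stage FPKM (0.143%), and these included all 3 cellulose synthase genes. The limit of 1/50 was chosen after the values were seen, so the count describes where the genes lie and tests nothing. By this ratio Sobic.002G205500 held place 2 from the lowest, Sobic.001G224300 place 7 and Sobic.003G296400 place 15. Left out of these places were 2 rows of the same Milky stage level that the table lists at 0 for Physiological Maturity. With these counted, 18 rows stood at 1/50 or less and the places were 4, 9 and 17. Over these 11150 rows, the median level at Physiological Maturity was 102% of that at the Milky stage, and 55 rows stood at 10% or less. In the narrower class of 5493 rows with 5 to 20 FPKM at the Milky stage, which holds all 3 genes, the 5th percentile of that share was 48.5%. Within it, 1 row had a lower ratio than Sobic.002G205500, 3 than Sobic.001G224300 and 8 than Sobic.003G296400.

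**Figure D2:**
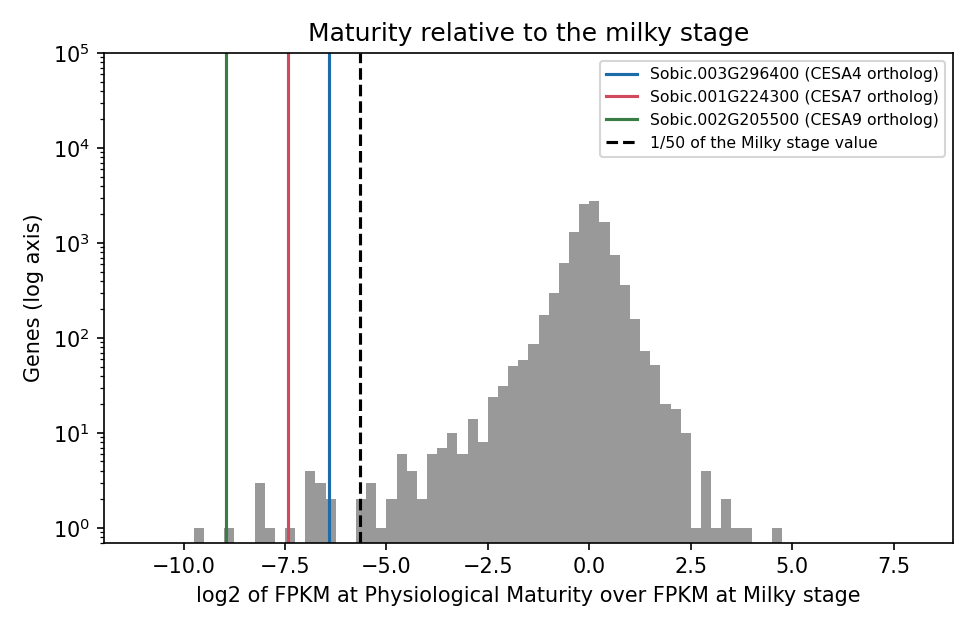
Number of single-ID rows (log axis) by the log2 ratio of FPKM at Physiological Maturity over FPKM at the Milky stage, for the 11150 rows with at least 5 FPKM at the Milky stage and above 0 at maturity. The coloured lines mark the 3 genes at −6.42 (Sobic.003G296400), −7.43 (Sobic.001G224300) and −8.96 (Sobic.002G205500), all left of the dashed line at 1/50.

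Over the whole span, Physiological Maturity against Booting, all 3 genes fell as well. Sobic.003G296400 stood at 0.196 FPKM at Physiological Maturity and 11.4 FPKM at Booting, so that 1.72% of the earlier level was left. For Sobic.001G224300 1.03% was left, and for Sobic.002G205500 0.352%. The log2(FPKM + 1) differences were −3.38, −2.26 and −2.69. Over all expressed rows 1146 of 18505 fell (6.19%), and the median difference was −2.69 for the 3 genes against 0.04 over those rows. This comparison shares the Booting and maturity values with the steps above and adds no independent evidence.

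The shares of the 3 genes in their summed FPKM were close at Booting and the Milky stage and different at Physiological Maturity. They are shares of RNA, and protein was not measured. Sobic.003G296400 supplied 54.4% of the summed FPKM of the 3 genes at Booting, 49.9% of it at the Milky stage and 76.3% of it at Physiological Maturity. Sobic.002G205500 supplied 26.5%, 28.9% and 7.62%, and Sobic.001G224300 supplied 19.1%, 21.2% and 16.1%, in the same order of stages. The CESA4 ortholog was highest at every stage. At Booting it stood 2.05 times above the CESA9 ortholog, which stood 1.39 times above the CESA7 ortholog. At the Milky stage these ratios were 1.72 and 1.36. At Physiological Maturity the lower places were exchanged, with the CESA7 ortholog 2.11 times above the CESA9 ortholog. Whether neighbours in these orders differ beyond the spread between plants is not known from 1 value a stage.

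**Figure D3:**
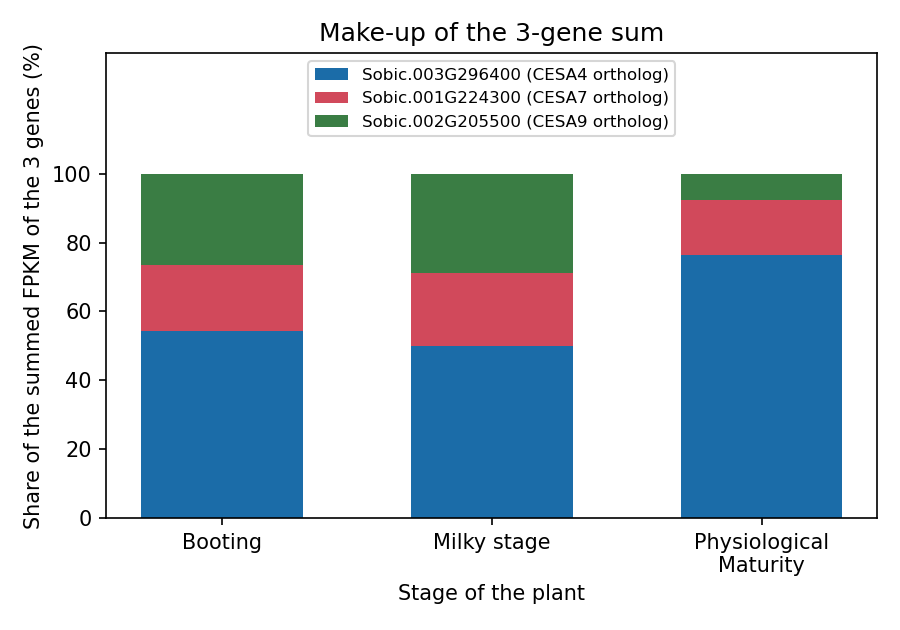
Share of each gene in the summed FPKM of the 3 genes (percent, bars stacked to 100) at each stage. The bars for Booting and the Milky stage are alike, and at Physiological Maturity Sobic.003G296400 takes 76.3% of a sum that is only 0.257 FPKM.

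At Physiological Maturity the shares of Sobic.001G224300 and Sobic.002G205500 rest on values near the smallest recurring step that was found. The value of Sobic.003G296400 lay farther above it. The table gives no depth. In rows of reference gene models over 600 bp, low values were multiplied by locus length less a fitted offset of 170 bp. At Physiological Maturity they piled up at 0.0112 FPKM kb, with 99 rows within 1%. The same search gave 0.0111 FPKM kb at the Milky stage and 0.0305 at Booting, and whether such a step is worth 1 fragment is not known. Measured in steps of this size over the full locus, introns included, the values at maturity came to at most 114 steps for Sobic.003G296400, 15.3 for Sobic.001G224300 and 8.17 for Sobic.002G205500. If 1 step is 1 fragment, the exchange of place between the last pair rests on no more than that many fragments, and counting error alone is then large. The ratios of fall from the Milky stage, and the order of the 3 genes by them, rest on the same values at maturity. Among 7019 rows with loci of 4000 to 7000 bp and a value above 0 at maturity, 226 were lower than Sobic.002G205500, 390 lower than Sobic.001G224300 and 849 lower than Sobic.003G296400.

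The pattern of a higher Milky stage followed by a fall was shared with other genes, and few matched its size. Of the 672 rows that fell from the Milky stage to Physiological Maturity, 511 had been higher at the Milky stage than at Booting, as the 3 genes had, against 49.1% of all expressed rows. The Milky stage value enters both steps, so a high value there favours this combination in any row. Likeness was measured over the 3 stages as the distance between pairs of log2(FPKM + 1) differences, 1 for each step, from the mean pair of the 3 genes (0.64 and −3.42). Among 8864 other single-ID genes with a mean of at least 10 FPKM, 2 lay within a distance of 0.25. Nearest was Sobic.009G162500, at 0.13, with 23.5 FPKM at Booting, 35.7 FPKM at the Milky stage and 2.73 FPKM at Physiological Maturity. Sobic.003G085800 followed at 0.22, with 13.3, 21.9 and 1.49 FPKM, and Sobic.001G202800 at 0.33, with 133, 180 and 19.1 FPKM. The other two were Sobic.008G070350, at 0.42, with 61.9, 106 and 12.2 FPKM, and Sobic.007G141200, at 0.43, with 64.5, 77.5 and 5.44 FPKM. The 3 cellulose synthase genes had means of 9.48, 3.73 and 5.12 FPKM (in the order CESA4, CESA7 and CESA9 orthologs), under the limit of 10 FPKM set for the genes compared. That limit favours genes with a higher level at maturity, and all 5 kept more than 1 FPKM there. Sobic.003G296400 lay 0.49, Sobic.001G224300 0.46 and Sobic.002G205500 0.07 from their own mean pair, so that the CESA4 and CESA7 orthologs lay farther from it than all 5 genes named. On this scale 7 other genes lay nearer to Sobic.003G296400 than Sobic.001G224300 did, and 22 lay nearer to Sobic.001G224300 than Sobic.003G296400 did.

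**Figure D4:**
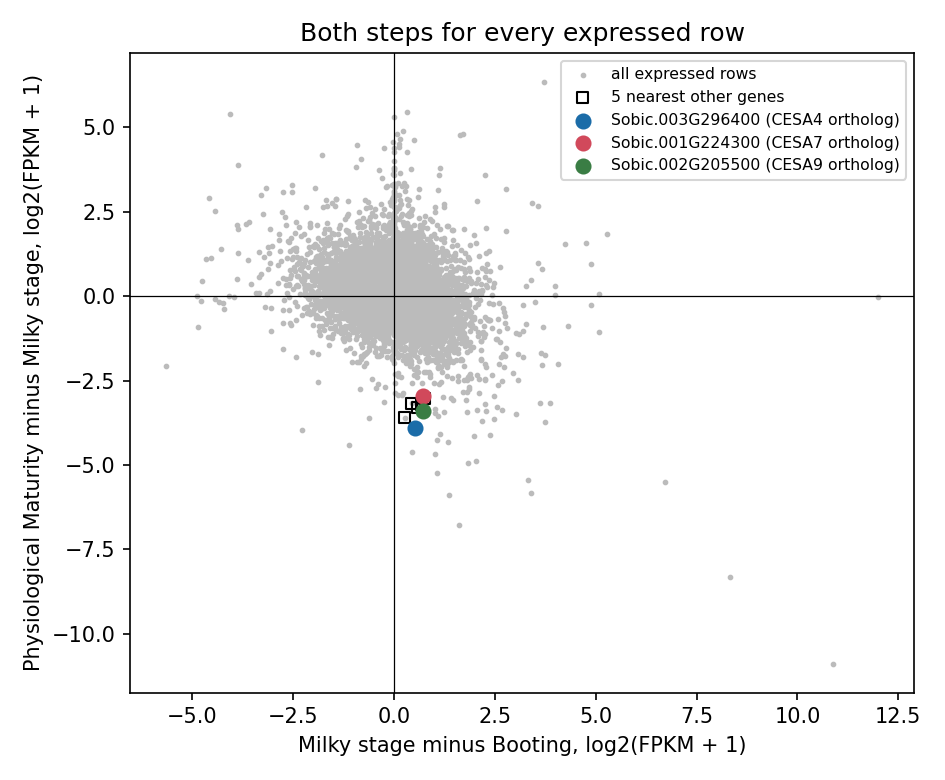
Difference in log2(FPKM + 1) of the Milky stage minus Booting (horizontal) and of Physiological Maturity minus the Milky stage (vertical), 1 grey point for each of the 18505 expressed rows. The 3 genes lie right of 0 and below the main cloud, between −2.97 and −3.90 on the vertical axis, with the 5 nearest other genes as open squares.

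On a scale with no pseudocount the genes named as nearest were different. Among 11145 other single-ID genes with at least 5 FPKM at the Milky stage, 0 lay within 0.25 of the mean pair (0.73 and −7.60 in log2 FPKM), and 0 of the 5 nearest were shared with the list above. Sobic.006G149400 was nearest, at 0.80, with 15.1 FPKM at Booting, 31.5 FPKM at the Milky stage and 0.268 FPKM at Physiological Maturity. Sobic.002G365700 was next at 0.82, with 7.48, 20.4 and 0.0796 FPKM. Sobic.006G001000 lay at 0.83, with 6.32, 6.77 and 0.0240 FPKM. Sobic.003G296400 itself lay 1.20, Sobic.001G224300 0.20 and Sobic.002G205500 1.36 from the mean pair. The CESA4 and CESA9 orthologs thus lay farther from it than all 5 nearest other genes. On this scale, which was added after seeing the data, 3 other genes lay nearer to Sobic.003G296400 than Sobic.001G224300 did, and 24 lay nearer to it than Sobic.002G205500. These distances rest on 3 values a gene and describe likeness of pattern only.

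The genes beside each locus were also looked at. The 5 nearest expressed rows with a gene ID were taken on each side of each gene, 30 in all. From the Milky stage to Physiological Maturity 0 of the 30 fell by the rule of size, and their log2(FPKM + 1) differences lay between −0.80 and 1.57. Over all expressed rows 3.63% fell, so a count of 0 among 30 is near the background and is no result about these neighbours. By the same rule 1 of the 10 rows beside each gene rose. Over all expressed rows 1712 of 18505 changed in either direction. The nearest row on each side is given next. All of these were higher at maturity, while others of the 30 were lower. Sobic.003G296300 and Sobic.003G296600, on either side of the CESA4 ortholog, had 36.0 and 23.4 FPKM at Physiological Maturity, against 27.1 and 7.21 FPKM at the Milky stage. Beside the CESA7 ortholog, Sobic.001G224200 and Sobic.001G224400 had 74.0 and 95.4 FPKM at Physiological Maturity, against 41.0 and 76.4 FPKM at the Milky stage. Beside the CESA9 ortholog, Sobic.002G205300 and Sobic.002G205900 had 49.97 and 2.10 FPKM at Physiological Maturity, against 40.6 and 1.71 FPKM at the Milky stage. The 3 genes lie on 3 different chromosomes.

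**Figure D5:**
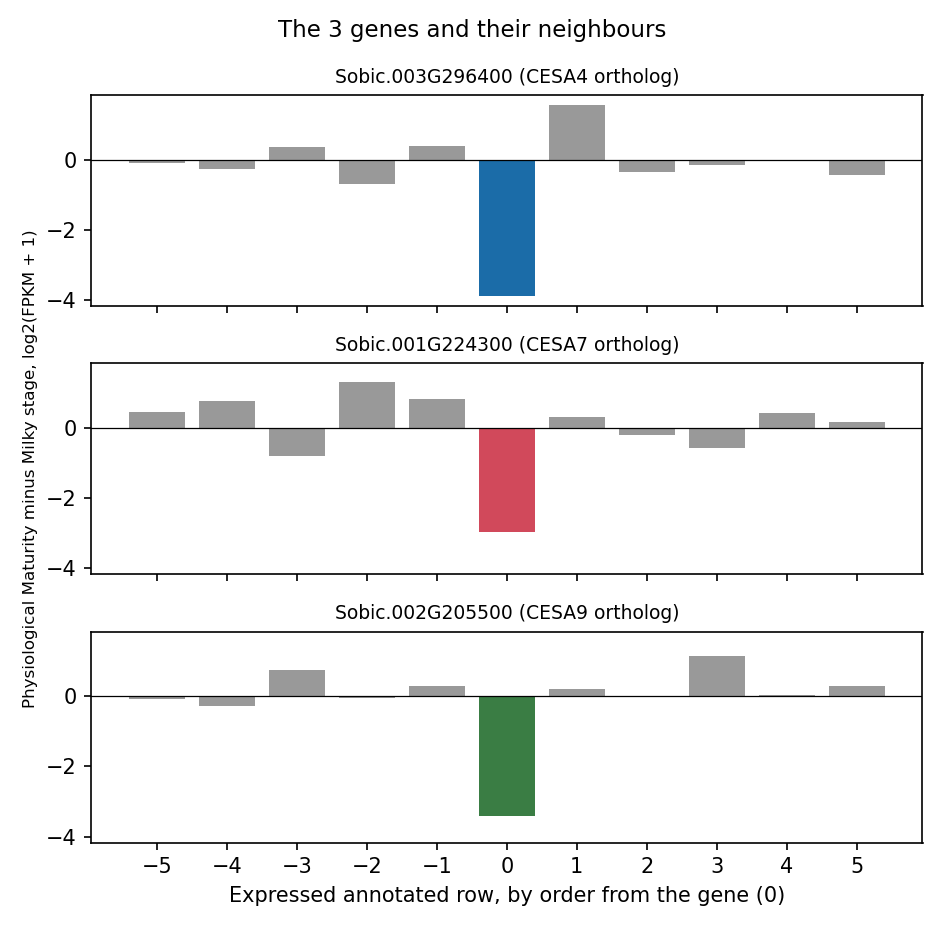
Difference in log2(FPKM + 1) of Physiological Maturity minus the Milky stage for each of the 3 genes (coloured bar at 0) and for the 5 nearest expressed annotated rows on each side (grey bars, by order along the chromosome). The coloured bars reach −3.90, −2.97 and −3.40 from top to bottom, while the grey bars lie between −0.80 and 1.57.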

How the data were processed

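Per the file headers, the deposited values are FPKM, 1 value made by the authors for each stage; how many libraries entered each value is not stated. Per the labels' protocols, libraries came from a stranded total RNA kit. The submitters' processing notes name HISAT2 2.0.5, Cuffdiff, Bowtie2 2.2.9 and cutadapt 1.8.1, with no roles. From these values were computed ratios, differences of log2(FPKM + 1), ranks, shares of the 3-gene sum and distances between patterns. A row was called when it had 1 FPKM or more in a stage and differed by 1 or more on that scale. The rule for named genes took the 3 members and the 5 genes nearest in pattern. Gene lists and markers were to be found by description. Of the 34129 gene IDs, 0 matched the RefSeq table of Sorghum_bicolor_NCBIv3, either as written or as locus tags, so these lists are not reported, nor are sequences. The members and lists were chosen with earlier results of these data known. The limit of 1/50, the neighbouring genes, the classes of length and level, the step search and the scale with no pseudocount were chosen after seeing the data. Code was tested on simulated data. Python 3.11.15, numpy 2.4.6, pandas 2.3.3 and matplotlib 3.10.9 were used.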

Additional observations from a re-analysis of the deposited data

How the results depend on the processing

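No paired analysis was possible because the table gives 1 value a stage, and the settings without a Booting replicate were not run for the same reason. All falls of the 3 genes kept their direction under every setting tried, which no choice of pseudocount could have altered. One lost its call: Sobic.001G224300 in Physiological Maturity vs Booting, at −0.84 with a pseudocount of 5. This follows from adding 5 to a gene of 4.005 FPKM at Booting. Without a pseudocount the log2 differences of Physiological Maturity minus Milky stage were −6.42, −7.43 and −8.96 for Sobic.003G296400, Sobic.001G224300 and Sobic.002G205500. The differences of Milky stage minus Booting stayed under 1 in each setting, at most 0.84 without a pseudocount. Rescaling by the median of ratios used factors between 0.983 and 1.04. No share of the 3-gene sum moved by over 1.5 times after quantile normalization; the largest relative move was that of Sobic.002G205500 at maturity, to 5.94%. Rows changed were 1986 for Milky stage vs Booting, 2645 for Physiological Maturity vs Booting and 1712 for Physiological Maturity vs Milky stage. With a pseudocount of 5 they were 847, 1167 and 668 in that order. Asking for a mean of 5 FPKM or more left 1265, 1529 and 955, and asking for a log2 difference of 2 or more left 308, 567 and 341. A pseudocount of 0.1 raised the counts to 3182, 3853 and 2722 in the same order. These moves follow from the weight of low values, the rows that enter and the size asked for. The 16 rows at 1/50 or less became 28 and 10 with a minimum of 1 and 10 FPKM at the Milky stage. The minimum of 10 FPKM kept Sobic.003G296400 (16.8 FPKM at the Milky stage). It left out Sobic.001G224300 (7.15 FPKM) and Sobic.002G205500 (9.76 FPKM), so the finding of all 3 genes depends on the lower minimum. The 16 rows became 33 at 1/20, which held all 3 genes, and 13 at 1/100, which held 2 of them, without Sobic.003G296400.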

Other observations

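The other 13 genes at 1/50 or less of their Milky stage FPKM, singled out after their values were seen, are given here by ID, since the files name none of them. In all, 14 of the 16 genes were higher at the Milky stage than at Booting, the 3 cellulose synthase genes among them, against 49.1% of all expressed rows. The genes were selected on their Milky stage value, which favours this direction. The lowest ratio was that of Sobic.009G056400, with 6.82 FPKM at Booting, 16.1 FPKM at the Milky stage and 0.0203 FPKM at Physiological Maturity. The most abundant was Sobic.001G519700, with 69.7, 214 and 0.973 FPKM, followed by Sobic.001G156700 with 10.3, 119 and 1.13 FPKM. Sobic.006G066500 had 7.42, 5.37 and 0.0482 FPKM, and Sobic.007G223600 had 11.9, 6.13 and 0.0551 FPKM; these were the 2 genes with a lower value at the Milky stage than at Booting. When 1/50 or less of the Booting level was asked for as well, 11 of the 16 genes were left, and they held all 3 cellulose synthase genes. The limit was set after the values of the 3 genes were seen, so this count also tests nothing. Among rows without a single ID, 0 of 933 merged rows and 2 of 339 unannotated rows with at least 5 FPKM at the Milky stage, and above 0 at maturity, stood at 1/50 or less.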
